A study of Mus musculus with 6 samples.

Results

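Annexins are calcium-regulated proteins that bind membranes, and 8 annexin genes were followed in the subventricular zone (SVZ) after stroke: Anxa1, Anxa2, Anxa3, Anxa4, Anxa5, Anxa6, Anxa7 and Anxa11. They were taken by name, and the family was chosen with earlier results of these data known. A probe set, the group of array probes that reads one transcript, counted for a gene only where the array's annotation gave that symbol and no other. By this rule 7 of the 8 were measured, among 18193 genes in all. The 1 probe set that carries the symbol Anxa11 carries other symbols too, so Anxa11 was not analysed here. Where several probe sets carried one symbol, the brightest of them across the 6 arrays was used and the rest served as a check. Expression was measured on 6 biotin-labelled arrays with total RNA from adult male C57BL/6 mice. In 3 samples the middle cerebral artery, which feeds the striatum and lateral cortex, had been occluded (MCAO), and the SVZ on the side of the lesion was taken 48 h later. In the other 3 samples the mice had sham surgery and the SVZ was taken at the same time. The SVZ is the wall of the lateral ventricle in which neural stem cells persist in adults. The labels name no transgene or drug in either group. One of them speaks of isolated cells where the others speak of dissected tissue, and none says how many mice went into an array. All p-values here therefore weigh differences against the scatter of these 6 samples, and that scatter may be technical.

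Every annexin has a conserved core that binds acidic phospholipids, such as phosphatidylserine, when calcium rises, and a tail at the amino end that differs between family members. The family is known for sealing torn plasma membranes, organising actin beneath the membrane and guiding vesicle fusion. Several members also act outside the cell: Anxa1 is a ligand of formyl peptide receptors that limits leukocyte entry, and Anxa2 with its partner S100a10 docks plasminogen and its activator at the cell surface. In brain tissue annexins are found in astrocytes, microglia and vessels as well as in infiltrating leukocytes.

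The stretches in front of the transcription starts of Anxa1, Anxa2 and Anxa5 are shown because these genes had 3 of the 4 largest differences; Anxa3, the other one, and Anxa6 had no entry in the promoter table, which held 6 of the 8 genes. The sequences are RefSeq's, build GRCm38.p6, given on the gene's own strand as the 250 bases before the start, at chr19:20390672-20390921 on the minus strand for Anxa1, chr9:69453433-69453682 on the plus strand for Anxa2 and chr3:36475888-36476137 on the minus strand for Anxa5. Capitals mark matches to any of 6 motifs searched on both strands.
Anxa1: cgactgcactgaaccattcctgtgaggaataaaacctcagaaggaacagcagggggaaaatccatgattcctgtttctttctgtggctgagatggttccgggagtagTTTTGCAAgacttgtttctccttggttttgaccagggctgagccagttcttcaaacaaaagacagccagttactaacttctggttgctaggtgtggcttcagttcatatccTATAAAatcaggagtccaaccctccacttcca
Anxa2: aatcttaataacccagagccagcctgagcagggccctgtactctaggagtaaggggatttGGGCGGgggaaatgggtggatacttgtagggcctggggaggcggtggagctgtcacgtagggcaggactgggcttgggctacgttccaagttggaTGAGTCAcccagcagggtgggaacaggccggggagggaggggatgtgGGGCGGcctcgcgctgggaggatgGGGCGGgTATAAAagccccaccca
Anxa5: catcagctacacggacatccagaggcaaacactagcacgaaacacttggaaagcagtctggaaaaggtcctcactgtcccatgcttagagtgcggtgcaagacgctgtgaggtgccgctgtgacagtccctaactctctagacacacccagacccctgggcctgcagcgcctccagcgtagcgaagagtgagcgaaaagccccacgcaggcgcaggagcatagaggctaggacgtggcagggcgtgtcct
The motifs were the AP-1 motif TGANTCA, the TATA box TATAAA, the GC box GGGCGG, the STAT motif TTCNNNGAA, the C/EBP motif TTGCNNAA and the NF-kappaB motif. Matches of different motifs did not overlap in the 3 stretches shown. Both Anxa1 and Anxa2 held a TATA box, which begins 32 and 17 bases before the start; 12.4% of all 32851 promoter windows of this length held one. Anxa2 alone among the 6 genes held an AP-1 motif, 95 bases before its start, a motif present in 6.75% of all windows, and it had 3 GC boxes, which 32.7% of windows held. The stretch of Anxa1 had a C/EBP motif 143 bases before the start (9.56% of windows). Anxa5 held none of the 6, Anxa4 held a C/EBP motif in the window of one start and an NF-kappaB motif (3.90% of windows) in that of another, and Anxa7 and Anxa11 held GC boxes only. A STAT motif, found in 7.02% of windows, was in none of the 8 windows of these genes. These are matches of letters in a short window and do not show that a factor binds there.

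The deposited arrays had medians between 6.57 and 6.59 log2, while their 90th percentiles ran from 8.85 to 9.06. Values below are quantile-normalised log2 levels, and across genes Pearson's r between pairs of arrays ran from 0.975 to 0.992. The labels number the samples 1 to 3 in each group. Both arrays numbered 1 had low poly-A labelling controls, at 7.69 log2 for MCAO and 7.96 for sham against 8.65 to 9.23 on the other arrays. Of the SVZ's own cell types, 9 of 9 measured markers of stem cells and neuroblasts and 7 of 8 ependymal markers lay above the median gene in sham. So did 6 of 6 markers of striatal neurons, the tissue next to the SVZ, and 2 of 8 of choroid plexus.

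All 7 measured annexins were higher on average after MCAO, and 2 of them, Anxa3 and Anxa1, rose past the threshold, an adjusted p under 0.05 over all genes by limma's moderated test. In the same comparison 1.12% of all genes rose. As the family was chosen with earlier results of these data known, the shares of all genes given here are descriptive only. The median difference, MCAO minus sham, was 0.55 log2 over the 7 annexins and -0.0064 over all genes, of which 47.7% were higher in MCAO. In 6 of the 7 every MCAO array lay above every sham array, against 8.43% of all genes. On the values as deposited it was 5 of 7, and the share of all genes was not computed on that scale. When the sample number was added as a block, so that MCAO and sham were compared within same-numbered samples, 5 of the 7 rose: Anxa2, Anxa5 and Anxa7 joined the first pair. With the block 4.82% of all genes rose. The labels do not explain the numbers, so pairing by number is an assumption. Tissue RNA cannot tell more RNA per cell from more cells that express a gene. Without the sham array numbered 3 none of the 7 passed, and the count over all genes dropped from 206 to 44; the differences of Anxa1 and Anxa3 were then 0.56 and 0.97 log2, with adjusted p-values of 0.0841 and 0.0900 by limma.

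**Figure D1:**
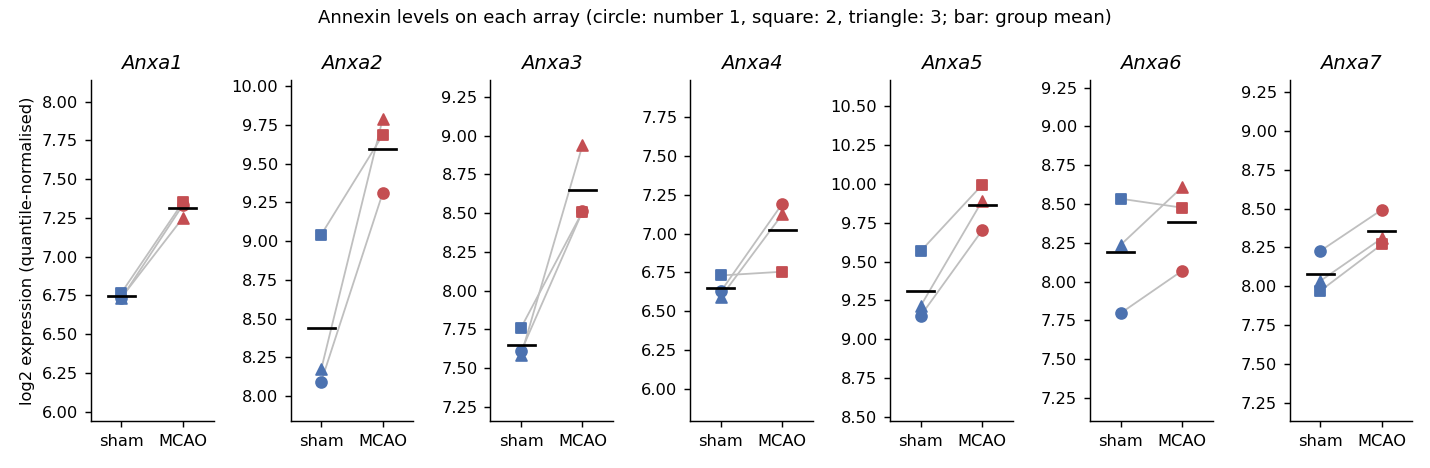
Quantile-normalised log2 expression of the 7 measured annexins on each array, with sham in blue, MCAO in red, a marker shape for each sample number, grey lines joining same-numbered samples and a black bar at each group mean. Each vertical axis spans the same 2.2 log2 units but starts at a different level; only Anxa6 has MCAO and sham arrays that overlap.

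Anxa3, a calcium-dependent membrane protein known from phagocytes and microglia, rose 2.00-fold. Its levels were 8.51, 8.51 and 8.94 log2 on MCAO arrays 1, 2 and 3, and 7.61, 7.76 and 7.58 on sham arrays 1, 2 and 3. The MCAO array numbered 3 was the highest, and the groups were separated by a gap wider than the spread of the sham arrays. The difference was 1.00 ± 0.13 log2 (SE, n = 3 per group; limma, adjusted p = 0.0127). Within the same-numbered samples it was 0.90, 0.75 and 1.35. Its only probe set gave these values, so there is no second reading of this gene.

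Anxa1, the formyl peptide receptor ligand induced by glucocorticoids, rose 1.48-fold. It read 7.33, 7.35 and 7.25 on the MCAO arrays and 6.73, 6.77 and 6.74 on the sham arrays. The SDs were 0.054 and 0.019 log2 (n = 3 each), and the groups did not overlap. The small SD of the MCAO arrays came with quantile normalization: as deposited they read 7.39, 7.40 and 7.20, with an SD of 0.11 (n = 3). The difference was 0.57 ± 0.069 log2 (SE; limma, adjusted p = 0.0116), and the same-numbered samples gave 0.60, 0.58 and 0.51. In sham its level lay at the 40.5th percentile of genes, below the median gene.

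Anxa2, which links membranes to actin and pairs with S100a10, had the largest difference of the family, 2.23-fold, and the 63rd largest of all genes. Its MCAO levels were 9.31, 9.68 and 9.79, and its sham levels 8.09, 9.04 and 8.17. The sham array numbered 2 stood well above the other sham arrays, though still below every MCAO array. The difference of 1.16 ± 0.25 log2 (SE, n = 3 per group) did not pass (limma, adjusted p = 0.105). It passed with the sample number as a block (limma, adjusted p = 8.20e-04), where the same-numbered samples gave 1.22, 0.64 and 1.61. Without the sham array numbered 2 it was 1.46 log2 and passed (limma, adjusted p = 0.0204). With any other single array left out it did not pass (limma, adjusted p from 0.0773 to 0.424). RefSeq lists an Anxa2-related pseudogene, and whether the probe set also reads it was not tested.

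Anxa5, the phosphatidylserine binder used to stain dying cells, was 1.46-fold higher. It read 9.70, 9.99 and 9.89 in MCAO and 9.15, 9.57 and 9.21 in sham. Again the sham array numbered 2 was the highest of its group, and the lowest MCAO array was only slightly above it. The difference of 0.55 ± 0.13 log2 (SE, n = 3 per group) did not pass (limma, adjusted p = 0.141), and it passed with the block (limma, adjusted p = 0.00138). Same-numbered samples differed by 0.55, 0.43 and 0.68. Its sham level lay at the 88.3rd percentile of genes.

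Anxa4, known from epithelial cells, was 1.30-fold higher on average without passing. It read 7.19, 6.75 and 7.12 in MCAO and 6.63, 6.73 and 6.59 in sham. The MCAO array numbered 2 was barely above its sham counterpart, so the same-numbered samples gave 0.56, 0.024 and 0.53. The difference was 0.37 ± 0.12 log2 (SE, n = 3 per group; limma, adjusted p = 0.338, and 0.0625 with the block).

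Anxa7, also called synexin and known for promoting membrane fusion in secretion, was 1.21-fold higher. It read 8.49, 8.27 and 8.31 in MCAO and 8.23, 7.97 and 8.03 in sham. Both arrays numbered 1 were high, and the same-numbered samples differed by 0.27, 0.30 and 0.27. This evenness came with quantile normalization: as deposited they differed by 0.29, 0.46 and 0.15, and the groups overlapped. The difference of 0.28 ± 0.099 log2 (SE, n = 3 per group) did not pass (limma, adjusted p = 0.407). With the block it passed (limma, adjusted p = 0.0343), but not when the deposited values were fitted with it (limma, adjusted p = 0.0911).

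Anxa6, a large annexin with a doubled core that works in endosome and lipid traffic, had the smallest difference. It read 8.07, 8.48 and 8.61 in MCAO and 7.80, 8.53 and 8.24 in sham. The groups overlapped, both arrays numbered 1 were the lowest of their group, and the samples numbered 2 differed by -0.058 against 0.27 and 0.37 in the others. The difference was 0.20 ± 0.20 log2 (SE, n = 3 per group; limma, adjusted p = 0.934, and 0.262 with the block). Its 95% interval, from -0.28 to 0.67, leaves room for a change of the size seen in Anxa1 and Anxa5. Without the sham array numbered 1 it was -0.00075.

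**Figure D2:**
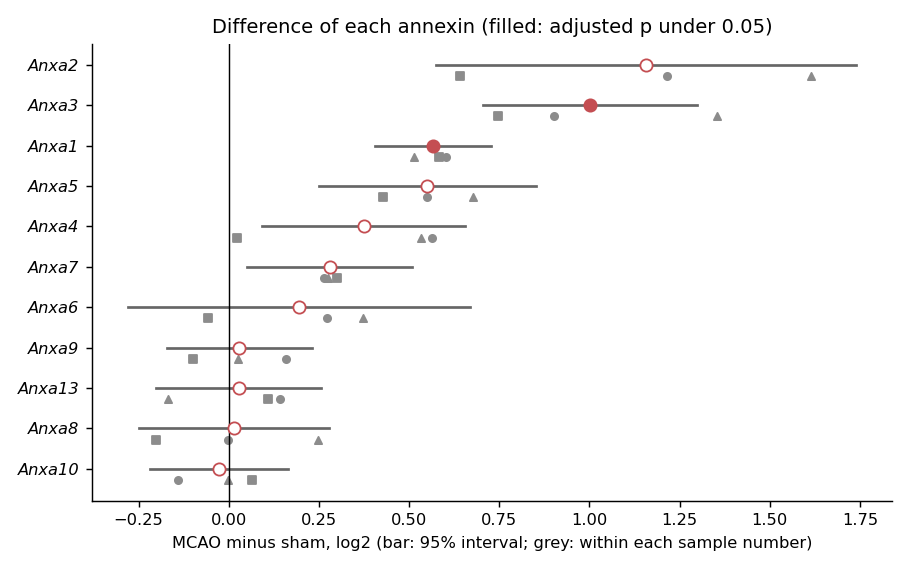
MCAO minus sham on the log2 scale for 11 annexins, with limma's 95% interval as a bar, the 3 differences within same-numbered samples in grey (circle 1, square 2, triangle 3) and a filled point where the adjusted p was under 0.05. Anxa2 and Anxa3 lie at or above 1.00 log2, and the 4 annexins at the bottom are centred near 0.

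By size of difference the order was Anxa2, Anxa3, Anxa1, Anxa5, Anxa4, Anxa7 and Anxa6. Of the 6 steps between neighbours in this order, 1 exceeded the spread between arrays: the gap between Anxa3 and Anxa1 was 0.44 log2 wider in MCAO, with no overlap of the groups (2-sided exact permutation test, p = 0.1, the smallest that 3 against 3 arrays allow, unadjusted). The other 5 neighbours differed by 0.015 to 0.18 log2 with overlapping gaps and exact permutation p-values between 0.6 and 1. A permutation of 3 against 3 arrays cannot reach 0.05, so this test says nothing on whether neighbours differ at that threshold. The order came from the same differences, so the pairs and the direction of each step were fixed before testing. Within same-numbered samples the difference of Anxa3 exceeded that of Anxa1 by 0.30, 0.16 and 0.84 log2.

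The sham arrays differed in a way that most of the measured annexins shared. The sham array numbered 2 was the highest sham array for 6 of the 7 annexins, all but Anxa7, and the samples numbered 2 gave the smallest difference for 5 of the 7. On the values as deposited Anxa5 was not among these, as its samples numbered 3 gave 0.53 against 0.59 and 0.62. The share of all genes highest on the sham array numbered 2 was not computed. The mean over all genes was also highest there, at 7.46 log2 against 7.42 and 7.45 on sham arrays 1 and 3. For 7 of the 14 lists of cell type markers the sham array numbered 2 held the highest sham mean, and for 3 lists the lowest. Averaged over 10 reactive astrocyte markers, it read 7.23 log2 against 6.90 and 7.04 on sham arrays 1 and 3, though not every marker of the list was highest there. Averaged over 8 ependymal markers it read 8.67 against 7.97 and 7.93, and the MCAO array numbered 2 read 8.82 against 8.18 and 8.26 on MCAO arrays 1 and 3. The 3 lists lowest on it were oligodendrocytes, at 10.67 against 10.90 and 11.42 on sham arrays 1 and 3, homeostatic microglia, at 8.19 against 8.35 and 8.30, and healthy astrocytes, at 10.01 against 10.16 and 10.03. The part of these cells in the annexin values was not tested.

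The other probe sets of the same genes gave smaller differences. The 7 annexins had 17 probe sets, of which 14 were higher in MCAO; among the 34945 probe sets with 1 symbol 0.644% rose, and of the 17 the same 2, those standing for Anxa1 and Anxa3, did. None of the 10 further probe sets passed, and 7 of them were higher in MCAO. The second probe set of Anxa1 read 5.95 ± 0.039 in MCAO and 5.88 ± 0.056 in sham (SD, n = 3), a difference of 0.078 log2, at the 12.7th percentile of probe sets in sham. For Anxa2 the further probe sets differed by 0.29, with all MCAO arrays above sham, and by 0.052, from sham levels at the 22.5th and 4.06th percentiles. The further probe sets of Anxa4 differed by 0.27 and 0.19, and those of Anxa6 by 0.092, 0.058 and -0.056. Those of Anxa7 went the other way from its brightest one, by -0.091 and -0.051. One of them is not dim, at the 70.1st percentile, so the Anxa7 difference rests on a single probe set. Averaging the probe sets of each gene left 1 of the 7 past the threshold, Anxa3, with Anxa1 at 0.32 log2 (limma, adjusted p = 0.05004).

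**Figure D3:**
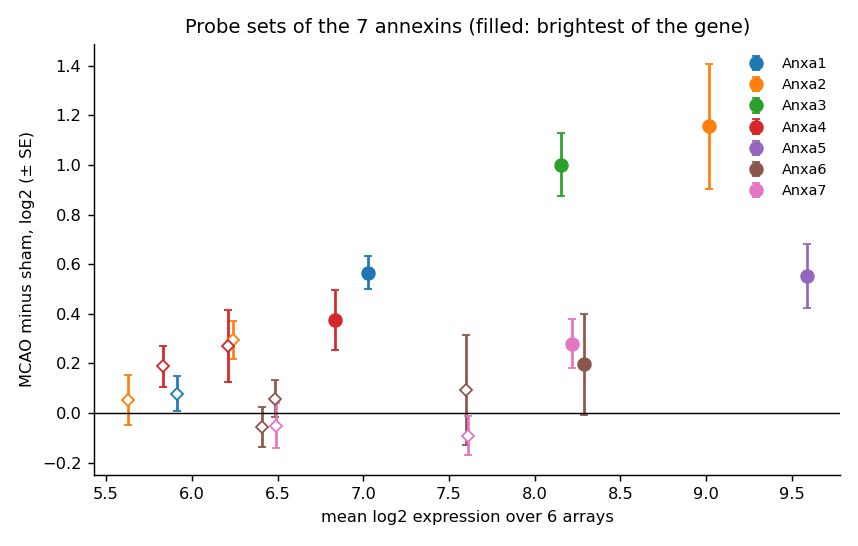
Difference between MCAO and sham (log2, bars show the SE) against mean log2 level for each of the 17 probe sets of the 7 annexins, filled where the probe set stands for its gene. The open points, the further probe sets, lie at lower levels than the filled point of their gene and none exceeds 0.29 log2.

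Of 4 further annexins, Anxa8 and Anxa13 are known mainly from epithelia. Anxa8, Anxa9, Anxa10 and Anxa13 differed by 0.015, 0.029, -0.027 and 0.028 log2, with SEs between 0.082 and 0.11, and none passed (limma, adjusted p between 0.987 and 0.991). Anxa8 read 6.79 ± 0.091 in MCAO and 6.77 ± 0.21 in sham (SD, n = 3), and the other 3 stayed between 5.64 and 6.05 on every array. All 4 lay below the median gene in sham.

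Annexins work with EF-hand proteins of the S100 family. Of 5 measured S100 partners 3 rose, against 1.12% of all genes, with a median difference of 1.43 log2. This list too was chosen with earlier results of these data known. S100a10, the obligate partner of Anxa2 in their tetramer, rose 2.69-fold. It read 8.96, 9.36 and 9.24 in MCAO against 7.64, 7.99 and 7.64 in sham, which differ by 1.43 ± 0.14 log2 (SE, n = 3 per group; limma, adjusted p = 0.00457). Its highest sham array was again number 2, but the gap to MCAO was wide enough to pass without the block. S100a6, which binds several annexins, rose 3.46-fold (limma, adjusted p = 0.00304), from 8.63, 9.10 and 8.49 in sham to 10.56, 10.49 and 10.54 in MCAO. S100a4, a partner of Anxa2, rose 3.48-fold (limma, adjusted p = 0.00895), though its adjusted p was 0.0504 without the MCAO array numbered 3 and 0.0734 without the sham array numbered 3. The remaining 2, named after their values were seen, were S100a1 at 0.60 log2 (limma, adjusted p = 0.207, and 0.00190 with the block) and S100b at 0.030.

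Among a receptor of Anxa1, genes of plasminogen activation and genes of phosphatidylserine exposure and recognition, 1 gene passed. Fpr2, the receptor of Anxa1, read 6.09 to 6.17 in MCAO and 6.18 to 6.22 in sham, a difference of -0.062 log2 at the 21.8th percentile of genes (limma, adjusted p = 0.938). Of 7 genes of plasminogen activation, the reaction that Anxa2 and S100a10 assist, none passed in either direction. The smallest p-values belonged to the plasminogen receptor gene Plgrkt at 0.22 log2 and the urokinase receptor gene Plaur at 0.11. Of 18 genes that control the exposure of phosphatidylserine or recognise this lipid, which Anxa5 binds, 1 rose. It was Pros1, which bridges phosphatidylserine to TAM receptors on phagocytes, at 0.95 ± 0.090 log2 (SE, n = 3 per group; limma, adjusted p = 0.00457). It read 8.31, 8.08 and 8.31 in MCAO and 7.22, 7.26 and 7.37 in sham. With the block 4 of the 18 rose, against 4.82% of all genes. The additional 3, named after their values were seen, were the TAM receptor gene Axl at 0.41, the scavenger receptor gene Stab1 at 0.41 and the integrin gene Itgb5 at 0.45 log2.

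Of 15 genes of plasma membrane repair none passed, and 4 rose with the block, against 4.82% of all genes. First by p were the caveolin gene Cav1 at 0.44 ± 0.10 log2 and the calpain gene Capn2 at 0.31 ± 0.12 (SE, n = 3 per group), with adjusted p-values of 0.133 and 0.472 by limma, and 0.0197 and 0.0307 with the block. Anxa1 was first described as an inhibitor of phospholipase A2 activity. Of 2 measured phospholipases that release arachidonic acid or related lipids, Pla2g4a read 0.59 ± 0.14 log2 higher. Its adjusted p was 0.153 by limma, and 5.73e-04 with the block; Pla2g6 read -0.10. Among 5 other annexin-binding proteins none passed, and the smallest p-values were those of the scramblase gene Plscr1 at 0.29 log2 and the calcium sensor gene Sri, or sorcin, at 0.25. With the block Plscr1 rose (limma, adjusted p = 0.0331).

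**Figure D4:**
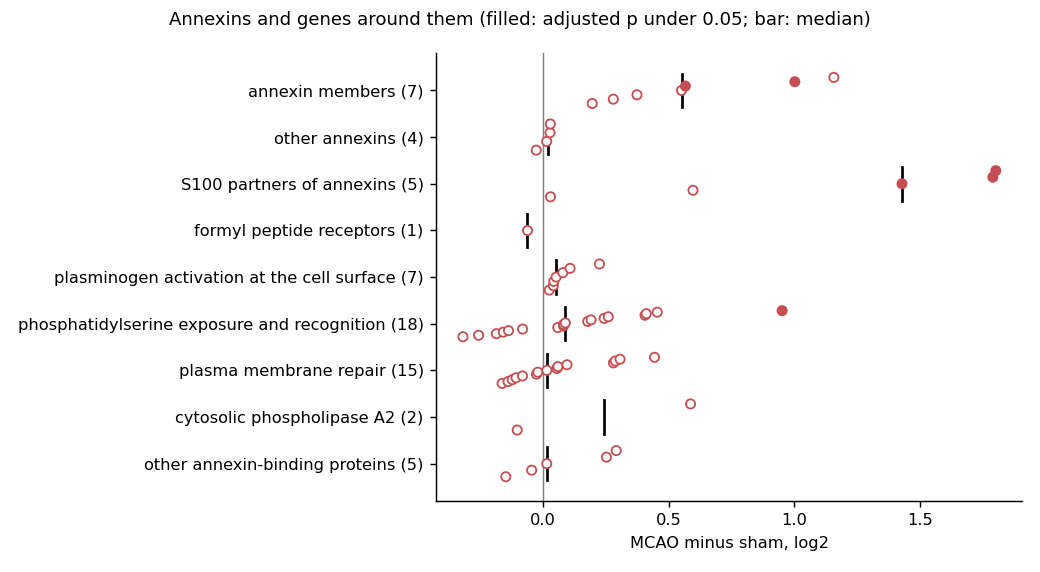
MCAO minus sham (log2) for each measured gene of the annexin list and of 8 lists around it, with the number measured in brackets, a bar at the list's median and filled points where the adjusted p was under 0.05. The filled points are 2 annexins, 3 S100 genes and Pros1.

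The genes whose profile over the 6 arrays was most like those of the annexins that rose were picked by Pearson's r among genes above the median level. For Anxa3 they were the tubulin gene Tubb6 (r = 0.997), the tetraspanin gene Tspan4 (0.997) and the actin-binding gene Tagln (0.996), which differed by 1.38, 0.94 and 1.95 log2. For Anxa1 they were the translation factor gene Eif3k (0.992), Ly86, a partner of the Toll-like receptor homologue CD180 on myeloid cells (0.991), and the actin-sequestering gene Tmsb4x (0.988), which differed by 0.14, 1.85 and 0.33 log2. All these correlations contain the difference between the groups and come from the same 6 arrays, so they describe likeness only.

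Markers of cells known to carry annexins moved in the same samples, in which 1.12% of all genes rose. Of 10 reactive astrocyte markers 7 rose, with a median difference of 1.89 log2 and the smallest p-values for Cd44 and S1pr3, and the list's mean level ran from 8.64 to 9.19 in MCAO and from 6.90 to 7.23 in sham. Of 7 activated phagocyte markers 6 rose (median 1.22; 8.69 to 9.11 against 7.59 to 7.83), first Fcgr1 and Cd14. Of 7 monocyte and macrophage markers 5 rose (median 0.64, list means 6.94 to 7.15 against 6.37 to 6.48), first Mrc1 and Ms4a6c. The others, named after their values were seen, were Ccr2 at 0.039 and Cd163 at -0.13 log2. For Cd163 every MCAO array lay below every sham array. None of the 7 lay above the median gene in sham. None of 7 homeostatic microglia markers passed (median 0.36), first by p Csf1r at 0.65 and Cx3cr1 at 0.46 log2. With the block 4 of the 7 rose, against 4.82% of all genes. Of 8 healthy astrocyte markers 2 rose, Aldh1l1 and Aqp4 (median 0.14), and 5 of the 8 were higher in MCAO. The lower ones, named after their values were seen, were Slc1a2, Aldoc and Gjb6 at -0.28, -0.041 and -0.035 log2.

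The 9 lists for other cells had no gene past the threshold; with the block Cd24a rose (limma, adjusted p = 0.00465) and Drd1 fell (0.0179). Neutrophil markers, which would come with cells rich in Anxa1 and Anxa3, had a median of 0.14 log2 over 8 measured genes, with list means of 6.31 to 6.44 in MCAO and 6.15 to 6.36 in sham, none above the median gene in sham; first by p were S100a8 at 0.24 and Elane at 0.20. Over 7 lymphocyte, 7 endothelial and 8 mural or fibroblast markers the medians were 0.033, 0.048 and 0.0098, and first by p were Cd79b, Cldn5 and Col1a2 at 0.22, 0.28 and 0.32 log2. The 8 ependymal markers had a median of 0.25, first Dnah9 at 0.21. The 8 choroid plexus markers had one of 0.059, with Ttr at -0.28. The 9 stem cell and neuroblast markers had a median of 0.14, the 7 oligodendrocyte markers -0.11 and the 6 striatal neuron markers -0.18, with Cd24a, Mbp and Drd1 first by p at 0.66, -0.11 and -0.34 log2. The part of any of these cells in the annexin differences was not tested.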

How the data were processed

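The deposited table holds log2 expression values for 45101 probe sets on 6 arrays; how the authors corrected background, summarised probes and normalized is not given in the sources used here. If low values were compressed before deposit, differences of dim probe sets are understated. Because upper quantiles differed between arrays, quantile normalization was added. The array's annotation gave 1 symbol to 34958 probe sets, several to 932 and none to 9211; leaving out controls, 34945 served 18193 genes. Of the 34958, 34754 matched RefSeq's gene table (GRCm38.p6). The groups were tested with limma 3.58.1 under R 4.3.3 (lmFit, eBayes, 2-sided), with Benjamini-Hochberg adjustment over all genes and a threshold of 0.05; the script was tested on simulated data. The labels do not explain the sample numbers. Deviations from group means correlated at 0.77, 0.44 and 0.48 across genes for numbers 1, 2 and 3. Such deviations cancel within a group, so a trait shared by the arrays numbered 1 alone would also raise the values for 2 and 3. Whether unlike numbers correlate less was not tested. The block therefore takes the numbers as pairs by assumption, from the data and not the labels. Named genes were all annexins, genes of each list past the threshold (at most 5) or otherwise the 2 with the smallest p, at most 2 per marker list, and the 3 genes most like each annexin that rose. The members and the lists were chosen with earlier results of these data known. Alternatives covered the normalization, the probe set per gene, dim genes, the variance model, the block and each array left out. The number of arrays limits the precision.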

Additional observations from a re-analysis of the deposited data

How the results depend on the processing

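The count of annexins past the threshold, 2 of 7, was 1 when probe sets of one gene were averaged, 5 with the sample number as a replicate block and 4 with that block on the values as deposited; leaving out 1 array it ran from 0 to 3. The count over all genes, 206, was 1113 and 817 with the block on those 2 scales and ran from 44 to 209 with 1 array left out. The count of annexin probe sets, 2, was 4 with the block and ran from 0 to 2 with 1 array left out. The count of S100 partners, 3, an alternative set chosen after seeing the data, was 4 with the block and ran from 2 to 4 with 1 array left out. With 1 array left out the difference of Anxa6 ran from -0.00075 to 0.37 log2, the lowest without the sham array numbered 1. Among recomputed differences of single annexins, 102 kept direction and side of the threshold, 6 newly passed, 3 no longer passed and 1, that of Anxa6, changed sign. The causes were not tested. Signal over background could not be judged from the deposited values, so dim probe sets show only that no change was seen.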
